A study of Mus musculus with 54 samples.

Results

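The genes described here carry the symbols of proteins of the cytosolic ribosome, the particle that translates every nuclear-encoded messenger RNA, or of relatives named after them. Whether the product of each relative is part of the ribosome was not examined. They were taken from the deposited count table by symbol: Rpl and Rps followed by a number and, where present, a paralogue or isoform letter, together with Rplp0, Rplp1, Rplp2 and Rpsa, leaving out symbols that end in a pseudogene suffix. RefSeq lists 1 of them, Rps4l, as a transcribed pseudogene. Its symbol fits the rule and it is kept among the paralogues. The rule found 85 of the 16632 genes in the table and used no measured value. Of these, 46 belong to the large subunit, 31 to the small subunit, and 8 are paralogues whose symbols mark them as relatives of another member. A filter on low counts kept 83 of the 85. The 2 members it removed were Rpl10l, with at most 2 counts in any experiment of a group and 27 counts in all, and Rpl3l, with at most 9 and 136.

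The study measured RNA in 54 libraries of primary microglia from neonatal C57BL/6 mice, loosely attached cells shaken off an astrocytic layer after brains had been pooled in culture flasks. Donor cells received 1 µM Atto-488-labelled alpha-synuclein (aSyn), the aggregating protein of Parkinson disease, for 14 h, and acceptor cells received a violet tracing dye for 15 min instead. Both populations were then mixed, and after 0, 15, 30, 60, 150 or 300 min they were sorted apart again by flow cytometry. There were 14 groups: untreated cells, cells given aSyn without co-culture (labelled aSyn_Donor), and donors and acceptors at each of the 6 times. No group carries a genetic change. The protocol does not say what 0 min stands for, nor whether untreated and aSyn-only cells were sorted. Donors and acceptors also differed in the vessel and number in which they were seeded, and these differences cannot be told apart from the aSyn exposure and the dye.

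Each group had 3 or 4 experiments, numbered 1 to 4 by the replicate numbers of the labels. Cells of passage 3 were used in experiment 1, of passage 1 in experiment 2 and of passage 2 in the other two. The library names of experiment 4 belong to a separate run of facility numbers, so its number and library batch cannot be told apart. It shares passage 2 with experiment 3, while the passages of experiments 1 and 2 cannot be told apart from their numbers. Untreated libraries with the same number were summed, which gave 52 units. Whether same-numbered cells came from the same animals is not given, and the p-values measure the spread between these samples only. Library totals were 7807389 to 15537493 counts, with a median of 13036175.5. Among microglial markers, Csf1r (median 1520 CPM, counts per 1000000 after scaling) and C1qa (1500 CPM) were high. Tmem119 (4.71 CPM) and P2ry12 (5.65 CPM), which mark homeostatic microglia in the brain, were low. Of 8 astrocyte markers, Gfap and Aqp4 had medians of 0.128 and 0 CPM. The highest were Aldh1l1 (5.31 CPM), Aldoc (4.59 CPM) and Slc1a3 (2.84 CPM), at levels like those of Tmem119 and P2ry12. The oligodendrocyte-lineage marker Mbp had a median of 77.4 CPM.

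Ribosomal proteins are made in step with ribosomal RNA and assembled in the nucleolus into a large and a small subunit. Many of their messenger RNAs begin with a cytosine followed by a run of pyrimidines, the terminal oligopyrimidine or TOP motif, through which mTORC1 and the RNA-binding protein LARP1 govern their translation and stability. Microglia that take up protein aggregates degrade them in lysosomes, on whose surface mTORC1 is switched on by nutrients.

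The RefSeq table gave 76 start sites for 64 of the members, on genome build GRCm38.p6. A start with C followed by at least 4 pyrimidines was found at 14 of the 76 starts (18.4%), against 823 of 32851 starts of all genes (2.51%). The windows below hold 15 bases before and 15 from the annotated start, with the pyrimidine run from the start in capitals. They are shown because this motif gives the class its name, and because the last 4, of members that stand at either end of the donor and acceptor comparison, lack it at the annotated base.
Rps6 (chr4:86857353-86857382, minus strand): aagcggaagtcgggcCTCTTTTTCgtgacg
Rpl15 (chr14:18270972-18271001, minus strand): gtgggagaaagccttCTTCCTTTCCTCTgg
Rps18 (chr17:33955651-33955680, minus strand): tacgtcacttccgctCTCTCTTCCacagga
Rplp2 (chr7:141447636-141447665, plus strand): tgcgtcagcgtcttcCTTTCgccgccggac
Rps21 (chr2:180257364-180257393, plus strand): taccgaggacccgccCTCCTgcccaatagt
Rps27 (chr3:90213634-90213663, minus strand): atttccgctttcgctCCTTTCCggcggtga
Rps15 (chr10:80292416-80292445, plus strand): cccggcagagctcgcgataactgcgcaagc
Rpsa (chr9:120127751-120127780, plus strand): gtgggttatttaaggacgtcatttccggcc
Rpl7l1 (chr17:46782642-46782671, minus strand): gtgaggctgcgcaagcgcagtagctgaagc
Rpl39l (chr16:10170213-10170242, plus strand): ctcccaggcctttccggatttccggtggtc

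An annotated start can lie some bases from the base where transcription begins, so a start without the run says only that these letters are not at this position. In the window from 250 bases before to 50 after the start, CCGGAAG on either strand, the core letters of an ETS-family motif, was present at 27 of 76 member starts (35.5%) and 8.86% of all starts. CACGTG, an E-box, was present at 10.5% and 7.15%, and TATAAA at 10.5% and 13.6%. CTTTCC on the gene's own strand, within 50 bases on either side, was present at 28.9% and 4.69%. CTTTCC can overlap the pyrimidine run itself. The matches are given as a description of the windows only.

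The 85 genes together held between 2.92 and 8.58% of a library's counts. In untreated cells the share was 7.47, 6.54, 8.2 and 5% in experiments 1 to 4, and in cells given aSyn alone it was 6.72, 6.22, 7.23 and 3.29%. The aSyn-treated cells had the lower share in each of the 4 experiments, although the groups overlapped. Donors had mean shares between 5.47 ± 2.22% (SD, n = 3) at 60 min and 6.47 ± 0.586% (n = 3) at 0 min. Acceptors had between 6.57 ± 0.899% (n = 3) at 300 min and 7.92 ± 0.864% (n = 3) at 0 min. The 0 min groups hold no library of experiment 4, the donors at 60 min none of experiment 2, and the acceptors at 300 min none of experiment 3. In these bulk samples fewer cells of a type and less RNA per cell cannot be told apart.

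**Figure D1:**
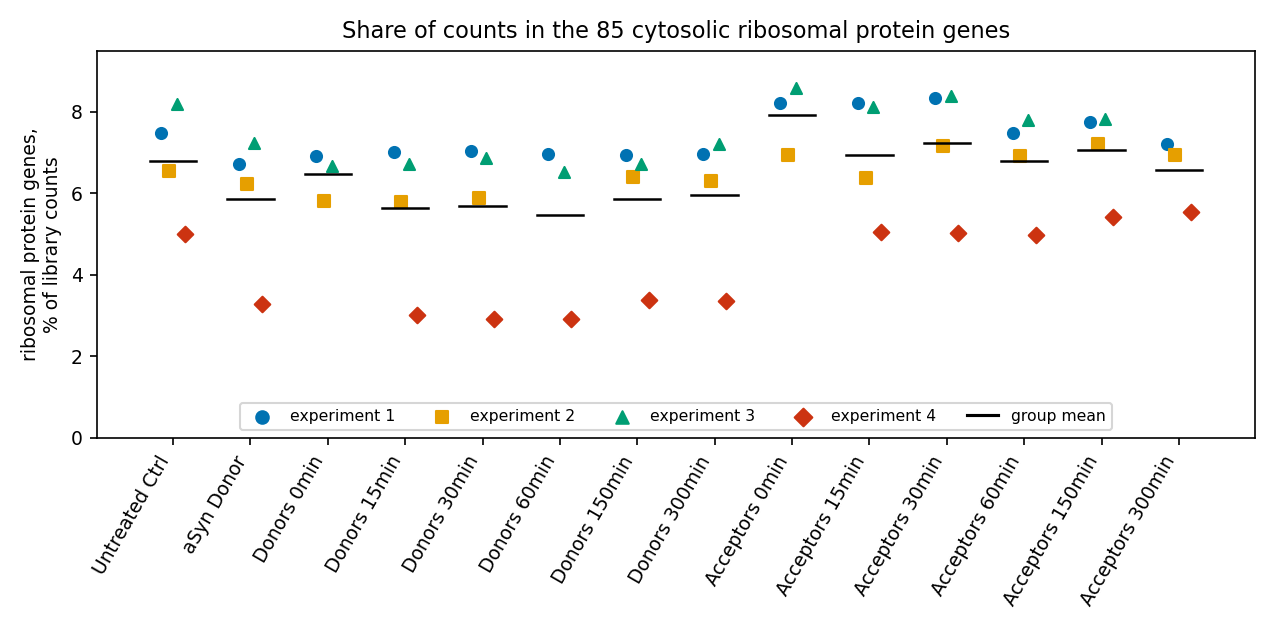
Percent of each library's counts in the 85 cytosolic ribosomal protein genes (y axis) for the 14 groups (x axis), with 1 point per experiment and the group mean as a bar. Experiment 4 is the lowest point of every group it is in, and its donors and aSyn-only cells lie at 2.92 to 3.38% while its acceptors and untreated cells lie at 4.97 to 5.54%.

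Within experiments the share was lower in donors than in the acceptors of the same number and time in 21 of 21 pairs, with donor to acceptor ratios of 0.583 to 0.967. The 21 pairs come from 4 experiments and are not 21 independent samples. In experiments 1 to 3 the ratio was 0.777 to 0.967 over 16 pairs, and in experiment 4 it was 0.583 to 0.625 over 5. The median member difference on the log2 CPM scale was -0.28 to -0.03 in experiments 1 to 3, with 58 to 80 of 83 members lower in donors. In experiment 4 it was -0.78 to -0.63, with 80 or 81 lower. Of all tested genes, 48.9 to 53.7% were lower in donors in a pair. The 2 smallest differences outside experiment 4 were at 300 min, -0.03 in experiment 1 and -0.08 in experiment 2, the latter shared with 60 min in experiment 1.

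**Figure D2:**
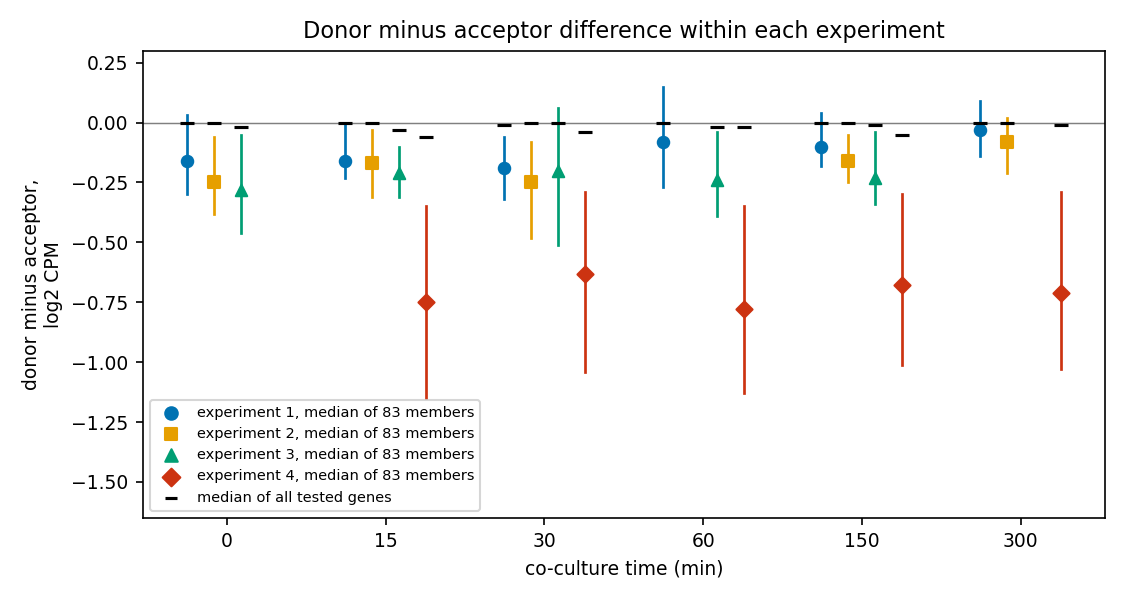
Donor minus acceptor difference in log2 CPM (y axis) by co-culture time in min (x axis), with 1 symbol per experiment for the median of the 83 tested members, a vertical line from their 10th to their 90th percentile, and a black dash for the median of all tested genes. All 21 member medians are below 0, and those of experiment 4 lie between -0.78 and -0.63.

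Of the 83 tested members, 31 were lower in donors in all 21 pairs, 19 of the 31 small-subunit members, 12 of the 46 large-subunit members and 0 of the 6 tested paralogues. Another view of the same pairs is that 72 members were lower in at least 18. How many of all tested genes were lower in as many pairs was not counted. These counts are therefore given as a description of the members only. The 4 members lower in fewer than 11 pairs were Rpl3 (10), Rpl22l1 (8), Rpl39l (6) and Rpl7l1 (5), of which 3 are paralogues.

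Rps15, a small-subunit protein near the decoding site, had the values 596, 464, 512 and 222 CPM in donors of experiments 1 to 4 at 15 min, and 706, 559, 672 and 508 CPM in acceptors. Each donor was below its own acceptor, while the 2 groups overlapped. Its log2 fold change, donor over acceptor, was -0.45 (SE 0.27, edgeR adjusted p = 0.555) without a term for the experiment. With the replicate number as a block it was -0.52 (SE 0.14, adjusted p = 0.0135). It also fell at 30, 60 and 150 min (-0.48, -0.48 and -0.45). In untreated cells Rps15 stood at 654, 628, 658 and 496 CPM, and in aSyn-only cells at 575, 506, 522 and 301 CPM, so both unexposed groups were above the exposed cells of their own experiment.

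Rpsa, which encodes a small-subunit protein also known as a laminin receptor, was at 631, 427, 577 and 196 CPM in donors at 15 min and at 706, 550, 712 and 475 CPM in acceptors. Its blocked log2 fold changes were -0.50, -0.53 and -0.54 at 15, 30 and 60 min (SE 0.14 to 0.16, adjusted p = 0.0212, 0.0134 and 0.0331), and at 0, 150 and 300 min it did not pass.

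Rpl22, a large-subunit protein with a known role in lymphocyte development, was at 651, 485, 627 and 400 CPM in donors at 30 min against 799, 680, 904 and 609 CPM in acceptors. Rpl4, whose product lines the tunnel through which the new protein leaves, was at 946, 731, 1030 and 427 CPM in donors against 1280, 1040, 1490 and 662 CPM in acceptors. Its blocked log2 fold change of -0.52 (SE 0.11) had the smallest adjusted p of any member at 30 min, 0.00221.

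Without the block, edgeR's quasi-likelihood test with Benjamini-Hochberg adjustment called 0 members in donors against acceptors at any of the 6 times, and DESeq2 also called 0. The smallest adjusted p per time was 0.655, 0.442, 0.19, 0.455, 0.519 and 0.935 in order of time, and 1, 0, 4, 3, 1 and 0 members had an unadjusted p under 0.05. The median member log2 fold change was -0.23, -0.28, -0.30, -0.27, -0.26 and -0.11, while the median of all genes lay between -0.03 and 0. Of all genes tested, 0.0607, 0.205, 0.251, 0.0835, 0.038 and 0% were called lower in this fit.

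With the replicate block, 1, 25, 34, 20, 3 and 0 members fell at 0, 15, 30, 60, 150 and 300 min, and 0 rose at any time. The share of all tested genes called lower in that fit was 1.6, 4.57, 5.25, 3.08, 2.24 and 0.425%. The median member log2 fold change was -0.23, -0.32, -0.35, -0.32, -0.30 and -0.25, against -0.04 to -0.01 for all genes. At an unadjusted p under 0.05 there were 25, 66, 70, 59, 63 and 39 members. These counts, and those at the same threshold without the block, have no share of all genes beside them. They describe the members only. Over the times, 30 of 46 large-subunit members, 22 of 31 small-subunit members and 0 of 6 paralogues fell at least once. The share of all genes that fell at least once was not counted. Rps15 and Rpl22 fell at 4 times, and Rpl15, Rps18, Rps2, Rps4x and Rpsa at 3. The direction of the median was the same with other size factors and with scaling factors computed without ribosomal protein genes and the ribosomal RNA precursor Rn45s. The counts were less stable: that last scaling gave 16 at 15 min, and DESeq2 with the block gave 35 at 60 min and 17 at 150 min.

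The number of calls depended on each experiment. Without experiment 1 the counts at the first 5 times were 0, 5, 15, 2 and 0, without experiment 2 they were 0, 0, 1, 2 and 0, and without experiment 3 they were 1, 0, 3, 1 and 0. Without experiment 4 they were 41, 6, 30, 8 and 1, and the median log2 fold changes became -0.23, -0.17, -0.21, -0.16 and -0.15. The 0 min groups hold no library of experiment 4, so the 41 came from the same 0 min samples, with an unchanged median. All groups share 1 estimate of the spread, and leaving out experiment 4 changes that estimate. The count at 0 min is therefore no measure of how large the difference was. At 300 min the count was 0 in each of these fits, with medians of -0.34 to -0.06. Rn45s held 13.4 to 22.1% of counts in experiment 4 and 1.42 to 13.5% in experiments 1 to 3, and it was higher in donors in 7 of 21 pairs. Its part in the difference was not tested beyond the scaling without it.

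**Figure D3:**
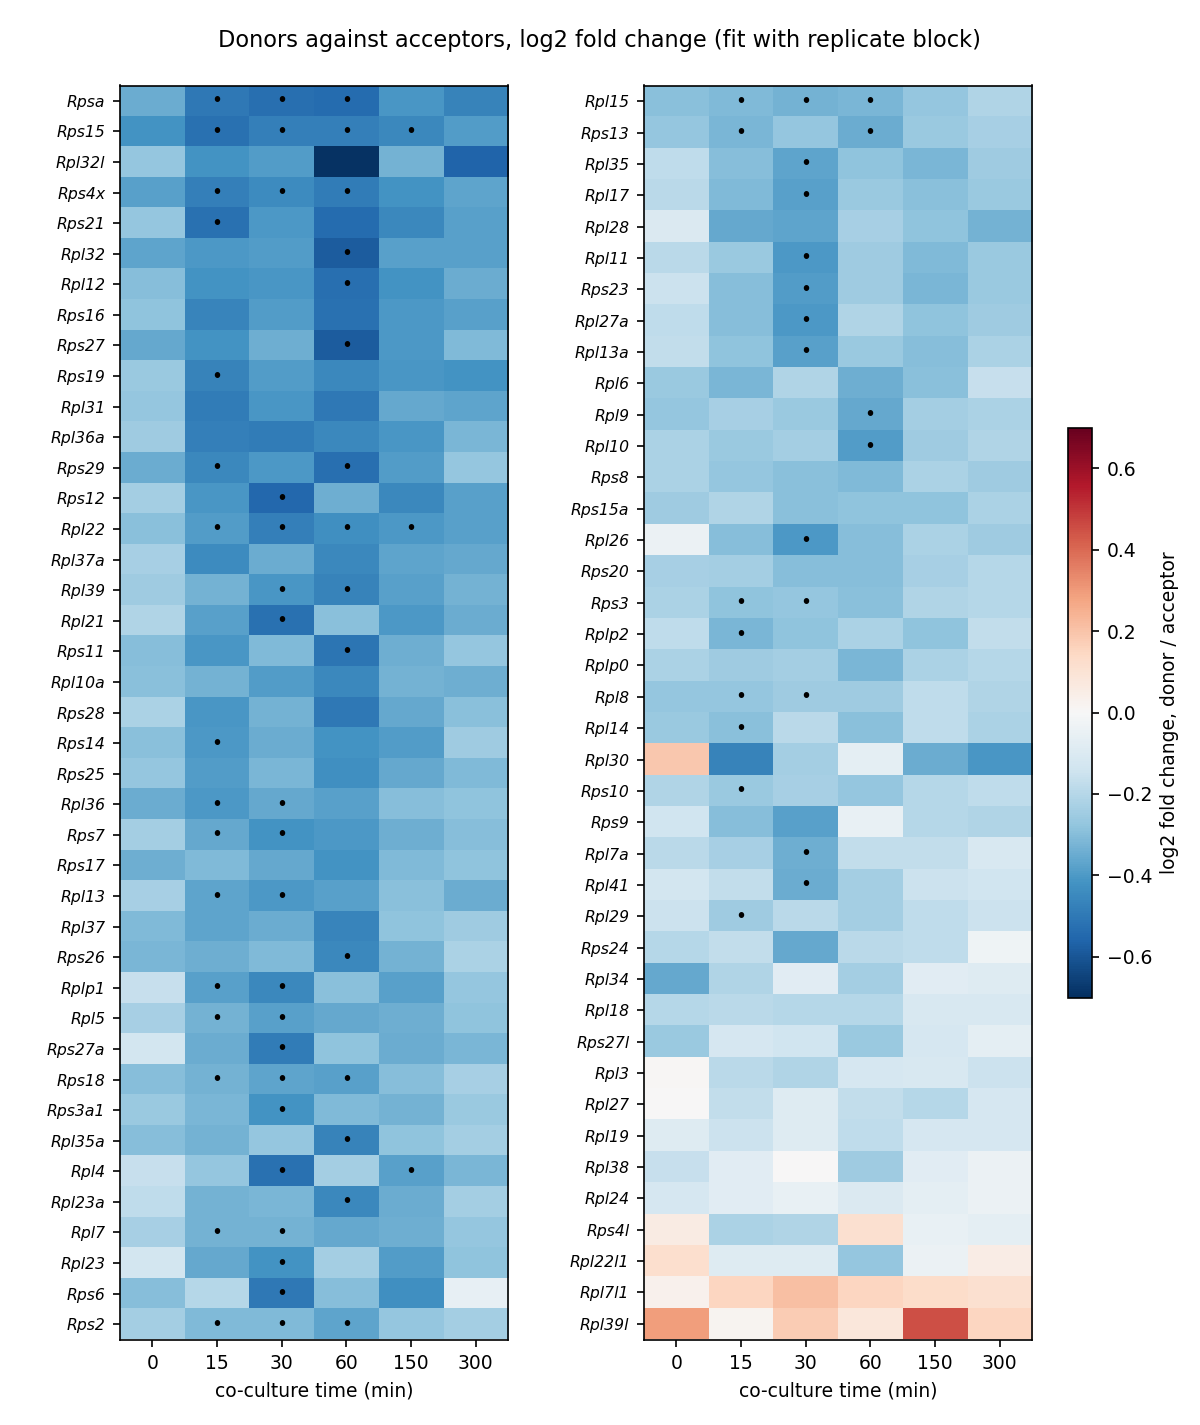
Log2 fold change of donors against acceptors (colour, blue lower in donors) from the fit with the replicate block, for 81 of the 83 tested members (rows, ordered by their mean) at the 6 co-culture times in min (columns), with a black point where the edgeR adjusted p was under 0.05. Most points lie in the columns of 15, 30 and 60 min, and the paralogues Rpl7l1 and Rpl39l are above 0 at every time.

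At 15 min the largest falls among the called members were Rps21 and Rps15 (both -0.52), Rpsa (-0.50), Rps4x (-0.48) and Rps19 (-0.47), all of the small subunit. At 30 min they included Rps12 (-0.55), Rpsa (-0.53), Rpl4 and Rpl21 (both -0.52). At 60 min they were Rps27 and Rpl32 (both -0.58), Rpsa (-0.54), Rpl12 and Rps29 (both -0.53). The 3 members that fell at 150 min were Rps15 (-0.45, adjusted p = 0.047), Rpl22 (-0.40, adjusted p = 0.0388) and Rpl4 (-0.38, adjusted p = 0.0409). None of these 3 passed at 150 min without experiment 4, where their values were -0.24, -0.18 and -0.25.

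The stalk proteins Rplp0, Rplp1 and Rplp2 recruit elongation factors to the large subunit. Rplp0, often used as a reference gene, was at 1070, 998, 1280 and 652 CPM in donors at 30 min and at 1270, 1130, 1280 and 949 CPM in acceptors. It was lower in donors in 21 of 21 pairs but was not called at any time, with blocked log2 fold changes of -0.32 to -0.20 and adjusted p-values of 0.0511 to 0.346. Rplp1 fell at 15 and 30 min (-0.38 and -0.45) and Rplp2 at 15 min (-0.32).

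Several members have known tasks away from translation. Rpl5 and Rpl11, which together with 5S RNA bind the p53 regulator MDM2, fell at 15 and 30 min (-0.33 and -0.38) and at 30 min (-0.40), respectively. Rpl13a, a component of the interferon-gamma-activated inhibitor of translation in myeloid cells, fell at 30 min (-0.38). Rps3, which also takes part in NF-kB and DNA repair complexes, fell at 15 and 30 min (-0.28 and -0.27). Rps27a, made as a fusion with ubiquitin, fell at 30 min (-0.49), and Rpl10, needed for joining of the subunits, fell at 60 min (-0.39). Rps6, the substrate of S6 kinases, was at 56.6, 33.8, 40.2 and 26.5 CPM in donors at 30 min and at 59.3, 48.9, 60.3 and 50.5 CPM in acceptors, a fall with a log2 fold change of -0.50 (SE 0.14, adjusted p = 0.0159).

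None of the 6 tested paralogues passed in donors against acceptors at any time, and 52 of the other 77 members did at least once. At a single time 1.38 to 10.8% of all genes were called with the block in either direction. The 0 of 6 is therefore no result about the paralogues. Rpl39l, Rpl32l and Rps4l were also low, with medians of 3.28, 19.7 and 41 CPM. Rpl7l1, a relative of Rpl7, was at 89.1, 104, 87.1 and 103 CPM in donors at 30 min and at 81.2, 98.2, 76.3 and 77.1 CPM in acceptors, higher in the donor of each pair. Its blocked log2 fold change was 0.21 (SE 0.08, adjusted p = 0.0947), while that of Rpl7 was -0.33 (SE 0.11, adjusted p = 0.0423). Rpl39l, known from testis, was at 1.29 to 9.48 CPM over all units, with blocked values of 0.02 to 0.45 (SE 0.26 to 0.32), while Rpl39 fell at 30 and 60 min (-0.41 and -0.47). Rpl22l1 had -0.09 (SE 0.21) at 30 min, where Rpl22 had -0.48 (SE 0.12). Rps4l had -0.21 (SE 0.17) and Rps27l -0.14 (SE 0.10), where Rps4x had -0.44 (SE 0.14) and Rps27 -0.34 (SE 0.14). The difference between a paralogue and its relative was not tested.

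In cells given aSyn without co-culture, against untreated cells, 76 of 83 members had a negative log2 fold change, with a median of -0.16 against -0.04 for all genes. The share of all genes that were lower is given by experiment below. Without the block edgeR called 0 members, with 1 at an unadjusted p under 0.05, a smallest adjusted p of 0.288 and 0 calls by DESeq2. It called 2.5% of all genes, 1.6% higher and 0.896% lower. The largest values were Rpl22l1 (0.35), Rpl39l (0.34) and Rpl7l1 (0.25), and among the smallest were Rpl31 (-0.36) and Rps15 (-0.35). With the block the median was -0.20 and 2 members passed, against 8.95% of all genes called higher and 10.2% lower. Rpl7l1 rose by 0.25 (SE 0.08, adjusted p = 0.029), at 80.6, 108, 93.7 and 95.8 CPM against 74, 93.9, 78.4 and 71.9 CPM in untreated cells. Rps15 fell by 0.39 (SE 0.14, adjusted p = 0.0381). Without an experiment the count was 1, 0, 0 and 4 for experiments 1 to 4 left out.

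By experiment, the median member difference between aSyn-only and untreated cells was -0.09, -0.11, -0.07 and -0.45, with 64, 62, 52 and 78 of 83 members lower. Of all tested genes, 50.4, 50.4, 52.1 and 53.7% were lower in the same pairs. The 8 astrocyte markers summed to 11.3, 18.8, 77.6 and 139 CPM in untreated cells of experiments 1 to 4. In aSyn-only cells the sums were 13.9, 11.2, 16.7 and 29.3 CPM, higher in experiment 1 and lower in the others. In the blocked fit 5 of the 8 fell, beside 10.2% of all genes called lower. Among these 5 were Gfap (-2.3) and Aqp4 (-2.78), at low levels of 0.731 ± 1.26 and 0.871 ± 1.69 CPM (SD) in aSyn-only cells. The part of such cells in the difference was not tested. In donors and acceptors the astrocyte sums were 8.79 to 35.3 and 7.59 to 42.3 CPM, lower in donors in 14 of 21 pairs, and the neuron sums 0.282 to 9.08 and 0.684 to 21.5 CPM, lower in 19. The oligodendrocyte-lineage sums were 58.4 to 129 and 54.9 to 171 CPM, lower in donors in 16 pairs, those of fibroblasts and endothelium 0.608 to 15.2 and 0.0811 to 23.2 CPM, lower in 4, and those of the erythroid lineage 0 to 10.7 and 0 to 24.2 CPM, lower in 12. The 8 microglial markers summed to 1930 to 7090 CPM in donors and 3170 to 8080 CPM in acceptors, lower in donors in 15 pairs. The part of these lists in the donor and acceptor difference was not tested either.

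Within a cell population, no member passed the test between co-cultured cells and their own reference. In donors against aSyn-only cells edgeR called 0 members at each time with or without the block. Medians without the block were 0.09, -0.08, -0.08, -0.12, -0.02 and 0.04, and 0 to 1 members had an unadjusted p under 0.05. In acceptors against untreated cells it also called 0, with medians of 0.15, 0.04, 0.06, 0.02, 0.07 and -0.02, and again 0 to 1 members at an unadjusted p under 0.05. DESeq2 without the block called 0 in each of these 12 comparisons. The medians above are from the fit without the block. The 0 min groups hold no library of experiment 4, in which 77 of 83 members had their lowest mean. With each experiment left out in turn, the 0 min median in donors was -0.1 to 0.19 without the block and -0.1 to 0 with it. In acceptors it was 0.05 to 0.24 and -0.02 to 0.05. The 0 min medians of 0.09 and 0.15 are therefore not shown to be rises. Of all genes, 0 to 0.0304% were called in donors and 0 to 0.137% in acceptors without the block, and 0 to 0.304% (at most 0.0228% higher) in donors with it. In acceptors with the block they were 0.995% (0.607% lower) at 0 min, and 2.25, 3.6, 4, 4.78 and 0.623% at the later times. All 6 donor comparisons share the aSyn-only libraries, and all 6 acceptor comparisons share the untreated ones.

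The highest and lowest members of these comparisons are given as values, since none passed. At 0 min donors had the lowest values for Rpl39l (-0.76, SE 0.47), Rpl34 (-0.26) and Rpl6 (-0.25) and high values for Rpl30 (0.53, SE 0.49) and Rps4l (0.45). Of these, Rpl39l and Rpl6 had their highest mean in experiment 4, and Rpl30 and Rps4l their lowest. Rpl34 had its lowest in experiment 2. From 15 to 60 min the 3 lowest were drawn from Rpl39l (-0.27, -0.24 and -0.45), Rpl22l1, Rpl34, Rps6, Rpl39, Rpl38 and Rpl35a, and the highest included Rps4l (0.05, 0.18 and 0.28), Rps24, Rpl32l and Rpl30. At 150 min they were Rps15a (-0.18), Rpl39l (-0.18) and Rpl30 (-0.16), and Rpl32l (0.14), Rps24 (0.09) and Rps27l (0.08). At 300 min they were Rps15a (-0.15), Rpl14 (-0.14) and Rpl22l1 (-0.13), and Rps6 (0.25), Rpl23 and Rps12 (both 0.17).

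In acceptors at 0 min the extremes included Rpl39l (-0.69, SE 0.47), Rpl34 (-0.22) and Rpl6 (-0.13), and, on the high side, Rpl11 (0.42, SE 0.43) and Rpl32l (0.37, SE 0.90). These acceptors also lack experiment 4, in which Rpl11 and Rpl32l had their lowest mean and Rpl39l and Rpl6 their highest. Rpl34, a large-subunit protein, was among the 3 lowest at 0, 15, 30, 60 and 300 min, with values of -0.34 to -0.15 (SE 0.19 to 0.20). The others among the lowest at these later times were Rpl3, Rpl26, Rpl38, Rps14, Rpl39l, Rps4l, Rpl30 and Rps24. Among the highest were Rpl22l1 at 15, 60 and 150 min (0.18, 0.22 and 0.32, SE 0.27), Rpl11 at 30 min (0.29) and Rpl6 at 300 min (0.20). Others were Rpl7a, Rps3, Rps12, Rpl32l, Rpl30, Rps27 and Rps6.

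A test over all 6 times called 0 members in donors and 0 in acceptors, with a smallest adjusted p of 1 in both without the block and of 0.246 and 0.968 with it. Unadjusted p-values under 0.05 numbered 0 and 0, and 3 and 0 with the block, and DESeq2 called 0 members in both. Of all genes, 0.0607 and 0.00759% were called without the block and 0.577 and 0.137% with it. The test of whether the donor and acceptor difference itself varied with time called 0 members, with a smallest adjusted p of 1 with or without the block and 0 unadjusted p-values under 0.05. It called 0% of all genes without the block and 0.0456% with it. The smaller count of calls at 0, 150 and 300 min is therefore not shown to be a smaller difference.

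For 3 role genes the order of the 14 groups had the same ends. Rplp0 had a mean log2 CPM of 9.87 ± 0.50 (SD, n = 3) in donors at 60 min, the lowest group, and 10.28 ± 0.08 (n = 3) in acceptors at 0 min, the highest. Rpsa ranged from 8.66 ± 0.78 in donors at 60 min to 9.37 ± 0.23 in acceptors at 0 min, with untreated cells at 9.21 ± 0.27 and aSyn-only cells at 8.85 ± 0.55. Rpl11 had 9.12 ± 0.97 in donors at 60 min and 9.80 ± 0.30 in acceptors at 0 min. Neighbouring groups in these orders differed by less than their SD, and the highest group has no library of experiment 4.

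Experiments differed in nearly every member. The test of the replicate number within groups called 81 of the 83 members, and 81.7% of all genes. The 5 largest F statistics belonged to the large-subunit members Rpl29 (206), Rpl35 (157), Rpl11 (139), Rpl18 (130) and Rpl28 (119). The 5 smallest were those of Rpl34 (2.34, adjusted p = 0.102), Rpl24 (2.99, adjusted p = 0.0511), Rpl7a (7.17), Rpl22l1 (9.69) and Rpl6 (10.0). The first 2 of these did not pass. Of the 83 members, 77 had their lowest mean in experiment 4, and 46 had their highest in experiment 3 and 31 in experiment 1.

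Rpl35 had mean log2 CPM values of 10.24, 10.05, 10.27 and 8.91 in experiments 1 to 4, while Rpl24 had 8.83, 8.87, 8.92 and 8.81. Experiment 4 was the lowest for both, by a wide margin for the first and a narrow one for the second. Rpl6 went the other way, with 10.15, 9.93, 9.92 and 10.25. The paralogue Rpl32l stood furthest from the rest at 4.55, 4.4, 4.3 and 1.38, and Rpl39l, at 1.36, 1.55, 1.97 and 2.48, was highest in experiment 4. The experiment accounted for a median of 64.0% of a member's variance in log2 CPM, against 32.9% over all tested genes, and the group for 17.8% against 23.7%.

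**Figure D4:**
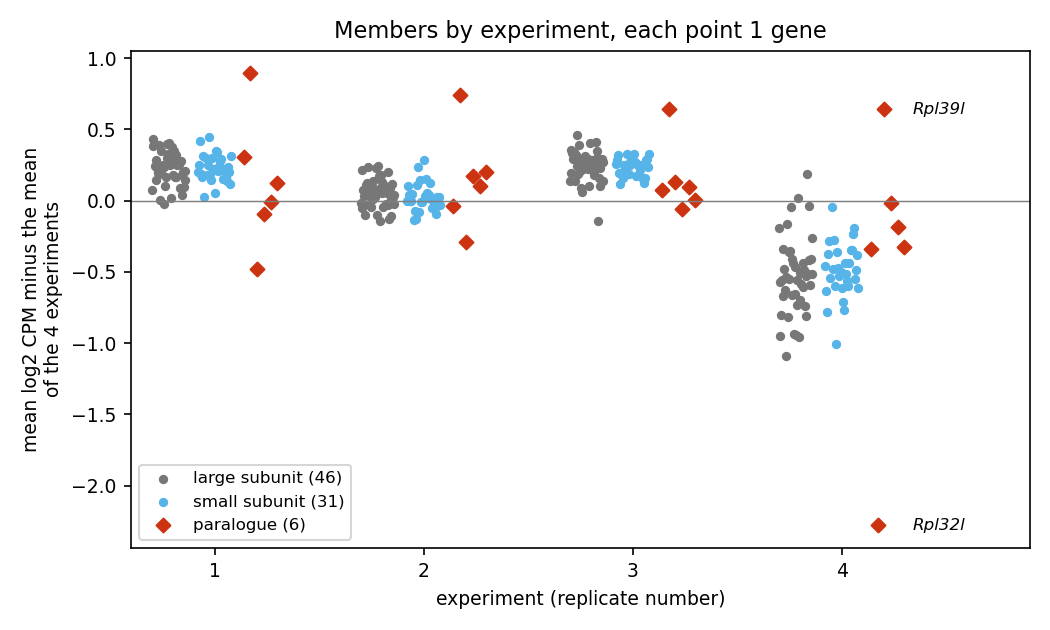
Mean log2 CPM of each tested member in an experiment minus its mean over the 4 experiments (y axis) by experiment (x axis), with 1 point per gene, coloured by subunit or paralogue. In experiment 4 most members lie below 0, Rpl32l lies lowest and Rpl39l highest.

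Members also varied together inside experiments. After the mean of each experiment was removed, the median Pearson correlation between pairs of members over the 52 units was 0.797, and 0.830 between members other than paralogues. The units share libraries' depth and scaling as well as treatment, and these values are descriptions. Between a paralogue and the other members the median was 0.259. The correlation of a member with the mean of all the others is a different quantity, which runs higher than the pairwise one, and had a median of 0.922 outside the paralogues. For Rpl7l1 it was -0.538, for Rpl39l -0.291 and for Rps4l 0.0828, while Rpl24 (0.226) and Rpl30 (0.301) were the lowest outside the paralogues.

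Ribosomal protein genes have many processed copies in the mouse genome, and reads that match several of them can be counted under either name. Of the 83 members with a protein-coding transcript in the GENCODE M21 annotation, 72 shared at least one stretch of 50 bases, out of the last 300 bases of their transcripts, with a transcript of another gene. In 42 at least 50% of these stretches were shared, and in 11 none were. Tested rows of copies, found by such a shared stretch or by a pseudogene symbol made from the member's own, numbered 22 for 18 members. Rpl14-ps1 and Rplp2-ps1 were taken by symbol only and shared no such stretch. For 7 members a copy row held more counts than the member. Rps6 had a median of 49.6 CPM and its copy Rps6-ps4 1040 CPM. Rpl30 had 21.7 CPM while Gm7429 had 589 CPM and Gm12191 469 CPM. Rpl34 had 55.8 CPM and Rpl34-ps1 930 CPM.

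The levels of these members alone are therefore uncertain, and how reads with several matches were assigned is not given in the sources used here. The 22 copy rows had blocked medians, donors against acceptors, of -0.21, -0.33, -0.27, -0.28, -0.29 and -0.17 over the 6 times. Of them 0, 1, 2, 2, 0 and 0 fell and 0 rose, against 1.6, 4.57, 5.25, 3.08, 2.24 and 0.425% of all genes called lower, so that the 1 of 22 at 15 min was near the share of all genes. They were Gm15772, a copy of Rpl26, at 15 and 30 min (both -0.36), Gm6654, a copy of Rps26, at 30 min (-0.65), and Gm12191 (-0.51) and Rps27rt (-0.58) at 60 min. Rps6-ps4, which held most counts of the pair, had -0.26 (SE 0.09, adjusted p = 0.0545) at 30 min, nearer to 0 than the value of Rps6 itself.

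**Figure D5:**
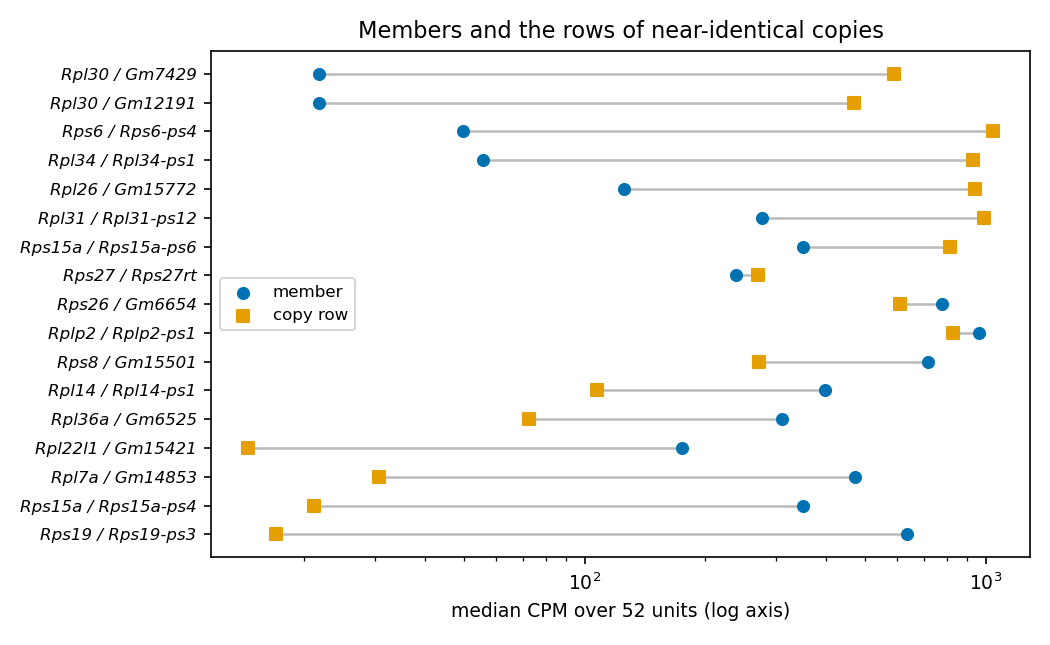
Median CPM over 52 units (log axis) of members (blue circles) and of the rows of their copies, found by shared stretch or by symbol (orange squares), for copies with at least 10 CPM. In the upper 8 lines the copy holds more counts than the member, by up to 26.5 times for Gm7429 and Rpl30.

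Other genes of the translation machinery were read from lists of the same kind. Of 24 tested further TOP and translation genes, 0, 9, 8, 5, 4 and 0 fell in donors against acceptors with the block and 0 rose. Of all genes, 1.6, 4.57, 5.25, 3.08, 2.24 and 0.425% were called lower in that fit. The medians of the list were -0.22, -0.26, -0.26, -0.27, -0.28 and -0.21. Those that fell include the elongation factors Eef1a1 (-0.46 at 30 min) and Eef2 (-0.41), the ribosome-bound scaffold Rack1 (-0.36), the nucleolar chaperone Npm1 (-0.43) and the histone chaperone Nap1l1 (-0.78). Fau, made as a fusion with a ribosomal protein of the small subunit, fell at 15 min (-0.38) and 60 min (-0.37). Without the block 0 genes of this list were called at any of the 6 times.

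The factors that build ribosomes were counted in the same way, beside 2.68, 5, 5.5, 3.62, 2.95 and 0.957% of all genes called higher in donors. Of 50 ribosome biogenesis genes, 0, 3, 3, 1, 1 and 0 rose and 0, 1, 0, 0, 0 and 0 fell with the block, with medians of 0.07 to 0.16, so the counts are near the share of all genes and no result about the list. Those that rose were Rrp12 (0.95 and 0.79 at 15 and 30 min), Heatr1 (0.49, 0.43 and 0.50 at 15, 30 and 60 min), both needed for processing or synthesis of ribosomal RNA, and Eif6 (0.46, 0.48 and 0.47 at 15, 30 and 150 min), which keeps free large subunits apart from small ones. Myc, a transcription factor that drives ribosome production, fell at 15 min (-1.38), at a low level of 1.39 ± 0.63 CPM (SD) in donors. The 76 tested mitochondrial ribosomal proteins had medians of 0.01 to 0.11, with 1, 3, 4, 3, 2 and 0 that rose and 0, 0, 1, 0, 0 and 0 that fell, also near the share of all genes. Mrpl52 rose at 15, 30, 60 and 150 min (0.95 to 1.03).

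Of 25 genes of the mTORC1 pathway and TOP control, 0, 0, 1, 1, 0 and 0 rose and 2, 2, 0, 0, 0 and 0 fell with the block. The 1 of 25 that rose at 30 and at 60 min is near the share of all genes. Beside the 2 that fell at 0 and at 15 min, 1.6 and 4.57% of all genes were called lower. The members below are given as single genes. Eif4ebp1, the translation repressor that mTORC1 inactivates, rose at 30 min (0.46), and Rps6kb2, an S6 kinase, at 60 min (0.63). Tsc2, an inhibitor of mTORC1, fell at 0 and 15 min (-0.50 and -0.32), Sesn1 at 0 min (-1.24) and Sesn3 at 15 min (-2.28). Sesn3 was barely counted in donors at 15 min, at 0.276 ± 0.211 CPM (SD). In aSyn-only against untreated cells Eif4ebp1 rose without the block (0.84), and Nap1l1 fell (-0.93). With the block Sesn2, a stress-induced inhibitor of mTORC1, rose by 2.48 and Sesn1 fell by 1.70. Sesn2 was also low, at 3.31 ± 1.81 CPM (SD) in aSyn-only cells. In that comparison 4 of the 25 rose and 1 fell with the block. Also with the block, 1 and 3 of the TOP list, 4 and 3 of the biogenesis list, and 10 and 1 of the mitochondrial list rose and fell, beside 8.95 and 10.2% of all genes.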

How the data were processed

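Counts of 3′ end reads (QuantSeq forward libraries, 50 bp single reads on a HiSeq2500, per the labels' protocols) were measured in 54 libraries. The authors deposited whole-number counts per gene symbol, per the file headers. The submitters' processing notes name STAR, Partek and DESeq2 and the build mm10, with no versions, while annotation, use of strand and treatment of reads with several matches are not given in the sources used here. The deposited normalized values were not used. No molecular identifiers are named. The standard errors and p-values rest on the spread between units and not on counting error alone.

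From the counts, edgeR 4.0.16 (R 4.3.3) was run with TMM scaling, filterByExpr (minimum count 10) and the quasi-likelihood F test over all 14 groups, 13169 genes and 19 pairwise comparisons, plus 4 F tests over times and experiments, at a Benjamini-Hochberg adjusted p under 0.05. CPM used the TMM-scaled library sizes, log2 CPM a prior count of 2. Standard errors come from the fold change and its F statistic. Same-numbered untreated libraries (chi-square per degree of freedom 10.3 and 12.1, against 24.2 to 288 for other pairs) were summed.

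The replicate numbers pair the samples: they come from the labels' titles, same-numbered units deviated together in every comparison (mean correlation of deviations 0.339 to 0.593, lowest single value 0.199), and the blocked values are printed beside the unblocked ones. The fits were tested on simulated data with known changes in donors against acceptors at 30 min and a chosen spread between experiments. A 0.8-fold change was called in 0% of 50 genes without the block and 8% with it. For a 0.5-fold change the shares were 16 and 86%, and for unchanged genes 0 and 0.0236%. A count of 0 members called therefore does not show that differences of such sizes are absent. Starts and transcripts came from RefSeq (GRCm38.p6) and GENCODE M21, read with Python 3.11.15 and pandas 2.3.3. DESeq2 1.42.0, RLE size factors, TMM without ribosomal protein genes and Rn45s, untreated libraries kept apart, no filter, fits with only the groups compared, added pseudogene counts and leaving out each experiment were the alternatives.

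The members and gene lists were chosen with earlier results of these data known. Named were fixed role genes and paralogue pairs, every called member or, above 10 in a direction, the 5 with the largest fold change, with 0 called the 3 highest and 3 lowest as values, and for the replicate number the 5 largest and smallest F. Genes outside the members were named where called in at least 1 comparison. Some items, among them 2 members, are not reported here by name, although counts and medians over the members include them.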

Additional observations from a re-analysis of the deposited data

Results flagged for a closer look

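In 45 groups of 4 experiments, a lowest or highest value standing apart from the other 3 was searched for. The values were the member share of counts and the CPM of the called members picked by the naming rule. Other called members were not searched. One value did. In donors at 150 min the share of counts in ribosomal protein genes was 3.38% in experiment 4, against a highest value of 6.94% in the group, and its gap to the next value was 0.851 of the group's whole range. Chance sets apart about 1 in 20 groups.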

How the results depend on the processing

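The replicate block and the choice of experiments both changed counts. From 0 without it, the number of members called became 2 in aSyn-only against untreated cells and 1, 25, 34, 20 and 3 in donors against acceptors at 0, 15, 30, 60 and 150 min. It changed no other count. Without the block, RLE size factors, DESeq2, scaling without ribosomal protein genes and Rn45s, no filter, separate untreated libraries, added pseudogene counts, only the groups compared, and leaving out each experiment gave 0 in the same comparisons. For the replicate number, leaving out an experiment gave 77 to 81 members called. The blocked alternatives were chosen after seeing the data. With the block, scaling without ribosomal protein genes and Rn45s gave 16 at 15 min, and DESeq2 gave 35 at 60 min and 17 at 150 min. With the block and 1 experiment left out, the ranges were 0 to 41, 0 to 6 (5 without experiment 1), 1 to 30, 1 to 8 and 0 to 1 in donors against acceptors at 0, 15, 30, 60 and 150 min, 0 to 4 in aSyn-only against untreated cells, and 0 to 1 in acceptors at 30 min against untreated cells. The 41 at 0 min came without experiment 4, of which the 0 min groups hold no library. Each of the 21 calls of members picked by the naming rule kept its direction and its side of the threshold with other size factors, with DESeq2 and with added pseudogene counts. Left-out experiments 1, 2, 3 and 4 ended 13, 19, 19 and 4 of them without a change of direction; these fits have fewer samples. At this depth Rpl10l and Rpl3l were too low to test.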
